A study of Homo sapiens with 20 samples.

Results

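The genes described here encode the proteins of the cytosolic ribosome. They are the protein-coding genes of GENCODE 44 on chromosomes 1 to 22 and X whose symbol is RPL or RPS followed by digits, with the A, X and L forms and with RPLP0, RPLP1, RPLP2 and RPSA, and without the RPS6K kinases. The rule uses names only and found 85 genes among 19970 protein-coding genes. Of these, 46 encode proteins of the large subunit, 31 encode proteins of the small subunit, and 8 are paralogue forms whose symbol ends in L or in L and a digit (RPL3L, RPL7L1, RPL10L, RPL22L1, RPL26L1, RPL36AL, RPL39L and RPS27L).

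The values come from chromatin immunoprecipitation and sequencing (ChIP-seq) of 3 subunits of cohesin, RAD21, SA1 and SA2, in 2 human cell lines. CHM13 cells, from a complete hydatidiform mole, gave 3 replicates of each subunit, and RPE-1 cells, from the retinal pigmented epithelium, gave 2. Both lines carry telomerase (hTERT), neither was treated, and total chromatin of each was sequenced as input, which brought the libraries to 20. The same SA1 and SA2 antibodies served both lines, but the RAD21 antibodies were not the same, the lines were sonicated on different instruments, and Drosophila chromatin was added to the CHM13 precipitations. Each list of peaks is 1 per line and subunit, pooled over replicates, and gives only where a peak starts and ends. No spread between replicates can therefore be given, and the Wilson 95% intervals below cover counting error only.

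Cohesin is a ring built from SMC1, SMC3 and RAD21, to which either SA1 (STAG1) or SA2 (STAG2) is joined. It holds sister chromatids together and extrudes loops of DNA, and it commonly stops at sites bound by the zinc finger protein CTCF and also lies at active promoters. Ribosomal protein genes are short, intron-containing genes that are transcribed strongly in every dividing cell. Their transcription starts at a C within a run of pyrimidines, the 5′ terminal oligopyrimidine (TOP) tract, which couples translation of their mRNAs to growth signals.

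The sequences of some starts are shown first, because the results turn on whether a peak lies over them. Promoters of 68 of the 85 genes were found in RefSeq (GRCh38.p14), and each was identical to hg38 at its coordinates. The stretches run from 60 bases before the first transcribed base to 19 after it, on the strand of the gene, and capitals mark the TOP tract. RPL10A had start peaks of 3 subunits in CHM13 cells and of RAD21 in RPE-1 cells, RPSA had a RAD21 peak only, RPS6 and RPS27A had an SA1 peak only, and RPL36 had no peak and the greatest distance to a CHM13 RAD21 peak.
RPL10A, chr6:35468341-35468420: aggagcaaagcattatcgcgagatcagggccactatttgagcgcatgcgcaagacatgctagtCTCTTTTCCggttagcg
RPSA, chr3:39406660-39406739: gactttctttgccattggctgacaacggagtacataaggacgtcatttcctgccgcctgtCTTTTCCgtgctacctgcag
RPS6, chr9:19380217-19380296, minus strand: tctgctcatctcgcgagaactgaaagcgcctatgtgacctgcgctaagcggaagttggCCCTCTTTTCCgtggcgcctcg
RPS27A, chr2:55232628-55232707: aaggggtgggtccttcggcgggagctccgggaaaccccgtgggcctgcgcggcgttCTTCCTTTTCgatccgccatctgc
RPL36, chr19:5690235-5690314: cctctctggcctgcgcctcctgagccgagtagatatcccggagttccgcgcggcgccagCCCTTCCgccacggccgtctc
All 5 carry a TOP tract. A tract, here a C followed by at least 4 pyrimidines on the strand of the gene and within 5 bases of the start, was found at 55 of the 68 starts (80.9%). It was found at 21.9% of 15247 other promoters and at 21.7% of 69 promoters of mitochondrial ribosomal protein genes. For 3 of the 68, RPL6, RPL26L1 and RPS29, the RefSeq start lay over 100 bp from the canonical start used for the peaks. No tract was found at these RefSeq starts.

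Further sequences were taken from hg38 where the letters of the CTCF core, CCANNAGNNGGC on either strand, lay in the middle 300 bases of a peak at or within one of the genes. They show what the exceptions look like, since most start peaks held no such match. Capitals mark the core, with 15 bases on each side, on the strand that matches.
RPL5, chr1:92831916-92831957, plus strand: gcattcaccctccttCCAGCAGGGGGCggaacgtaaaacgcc
RPL38, chr17:74203537-74203578, plus strand: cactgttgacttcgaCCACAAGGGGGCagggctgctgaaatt
RPLP0, chr12:120201324-120201365, minus strand: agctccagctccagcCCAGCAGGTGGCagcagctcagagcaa
RPS4X, chrX:72277314-72277355, minus strand: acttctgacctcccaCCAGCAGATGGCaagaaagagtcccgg
RPL3, chr22:39316574-39316615, minus strand: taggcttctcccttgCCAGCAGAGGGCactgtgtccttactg
The first 4 lie upstream of the start, at −103 (RPL5), −120 (RPL38), −234 (RPLP0) and −87 bases (RPS4X). The match in RPL3, which encodes a core protein of the large subunit, lies 3028 bases into the gene, in intron 4. These genes were chosen for their matches, after the values had been seen, except RPL3 and RPLP0. A further match, in RPL4, is not printed.

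A gene was counted at its start when a peak of at least 1 bp overlapped the 1 kb on either side of the first base of its canonical transcript. In CHM13 cells SA1 was the subunit listed at the most starts. An SA1 peak lay at 33 of the 85 starts, 38.8% (Wilson interval 29.2 to 49.5%), beside 17.7% of the 19885 other protein-coding genes. RAD21 was near the background, with 31 starts, 36.5% (27.0 to 47.1%), beside 33.9%. SA2 was at 10 starts, 11.8% (6.52 to 20.3%), beside 14.3%. The interval for SA1 therefore lay above the share of the other genes, whereas those for RAD21 and SA2 contained it. These shares depended on the peaks counted. With only peaks at least as wide as the median of their list, SA1 was at 23.5% of the starts beside 11.2% of other genes, and RAD21 at 18.8% beside 23.2%. With only peaks that overlapped both other subunits, SA1 was at 11.8% beside 9.88%.

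In RPE-1 cells, whose lists are shorter, 3 starts had a RAD21 peak, 3.53% (1.21 to 9.87%), beside 6.00% of other genes. None of the 85 had an SA1 or SA2 peak there, beside 1.78% and 1.37%. A count of 0 of 85 allows a share of up to 3.53%, so a share as low as that of the other genes was not detectable with this number of genes. On hg38 the RAD21 list had 73881 peaks in CHM13 and 14998 in RPE-1, the SA1 list 38284 and 10724, and the SA2 list 44503 and 6416. Among other genes with a RAD21 start peak in CHM13 cells, 17.1% also had one in RPE-1 cells, and among the ribosomal protein genes 9.68% (3 of 31). All 3 RPE-1 starts were among the 31 of CHM13 cells, as were 96.3% of the RPE-1 starts of other genes.

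**Figure D1:**
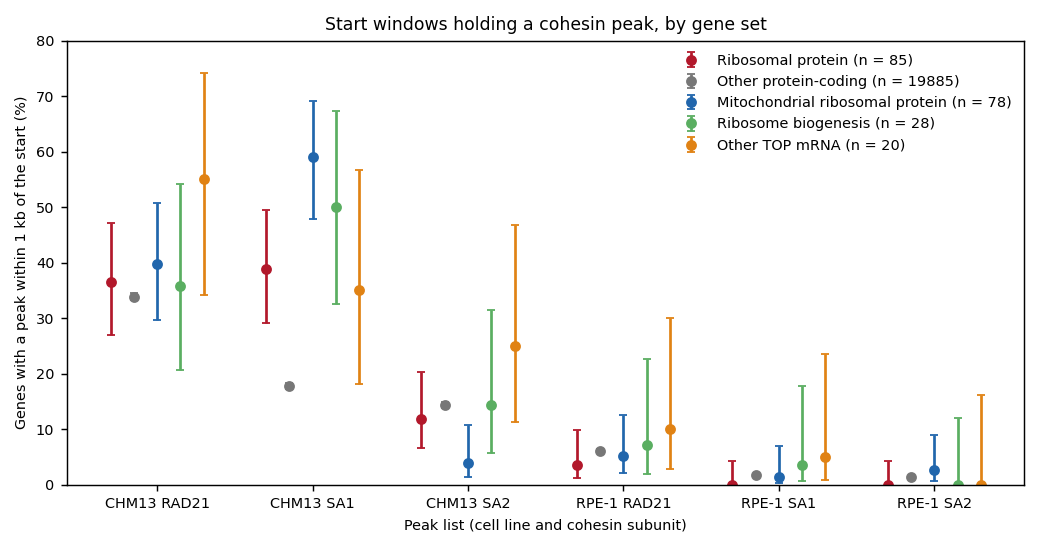
Share of genes (%, vertical axis) with a cohesin peak within 1 kb of the start, for each of the 6 peak lists and 5 gene sets, with Wilson 95% intervals as bars. For SA1 in CHM13 cells the ribosomal protein genes (38.8%) and the mitochondrial ribosomal protein genes (59.0%) lie above the other protein-coding genes (17.7%), while for RAD21 the ribosomal protein genes (36.5%) and the other genes (33.9%) lie together.

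A start could carry 1 subunit or several. A start peak of any subunit lay at 45 genes in CHM13 cells, 52.9%, beside 37.6% of other genes. Of the 45, 14 had SA1 alone, 12 had RAD21 alone, 9 had RAD21 and SA1, and 10 had RAD21, SA1 and SA2. RAD21 alone was thus at 14.1% of the 85 genes beside 15.4% of other genes, and RAD21 with SA1 at 10.6% beside 4.16%. No start had SA2 without SA1 and RAD21. Among other genes, RAD21 and SA2 without SA1 was at 880, 4.43%. SA1 without RAD21 was listed at 16.5% of ribosomal protein genes and at 3.71% of other genes. Put over the starts with SA1, 42.4% of those of ribosomal protein genes had no RAD21 peak, against 20.9% of those of other genes. Over the whole genome 94.6% of SA1 peaks overlapped a RAD21 peak, against 57.6% of the 33 SA1 peaks at these starts and 81.5% of those at other starts. SA1 and RAD21 were precipitated with different antibodies. By the paper, a CHM13 RAD21 replicate also had far fewer reads than the other CHM13 precipitations. The part of either in the counts was not tested.

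The genes with SA1 alone encode mainly proteins of the small subunit. They are RPS2, RPS6, RPS7, RPS9, RPS16, RPS18, RPS20, RPS21, RPS25 and RPS27A of the small subunit, RPL9, RPL18 and RPLP2 of the large subunit, and the paralogue RPL7L1. That is 10 of 31 small-subunit genes, 32.3%, and 3 of 46 large-subunit genes, 6.52%. With RAD21 and SA1 but no SA2 the order was the other way, at 7 of 46 large-subunit genes and 1 of 31 small-subunit genes. The split by subunit was seen in the data and not tested. Over all SA1 starts the subunits stood closer, at 15 of 46 (32.6%, 20.9 to 47.0%) for the large and 14 of 31 (45.2%, 29.2 to 62.2%) for the small, and their intervals overlapped. RAD21 was at 18 of 46 large-subunit starts, 39.1%, and at 9 of 31 small-subunit starts, 29.0%.

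**Figure D2:**
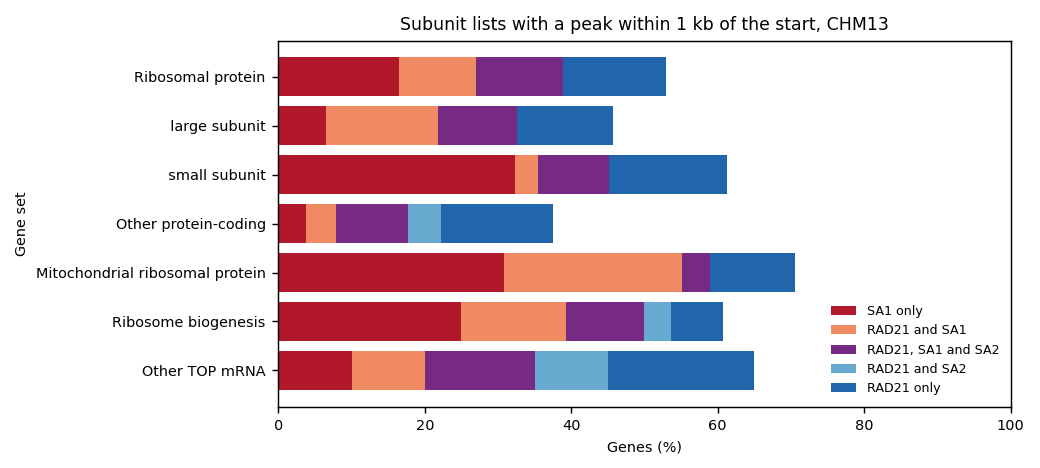
Share of genes (%, horizontal axis) with each combination of CHM13 subunit lists within 1 kb of the start, stacked, for the ribosomal protein genes, their 2 subunits and 4 other gene sets. SA1 without RAD21 takes 32.3% of small-subunit genes, 6.52% of large-subunit genes and 3.71% of other protein-coding genes.

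The combination of all 3 subunits was found at 10 ribosomal protein genes, 11.8%, beside 9.84% of other genes, a share near the background. The 10 were RPL5, RPL10A, RPL26, RPL27 and RPL27A of the large subunit, RPS26, RPS28 and RPS29 of the small subunit, and the paralogues RPL39L and RPS27L. RPL5 binds 5S rRNA and, free of the ribosome, the ubiquitin ligase MDM2. Its RAD21 peak (725 bp), SA1 peak (558 bp) and SA2 peak (513 bp) were centred 30, 33 and 15 bases after the first base, in exon 1. The CTCF core printed above lies within all 3.

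Only RPL10A and RPS26 (2.35%) had a start peak in 4 of the 6 lists, beside 3.04% of other genes, and no ribosomal protein gene had one in 5 or 6, beside 0.940% and 1.02% of other genes. RPL10A, a large-subunit protein, had peaks of RAD21 (1047 bp), SA1 (832 bp) and SA2 (632 bp) in CHM13 cells, which were centred 34, 76 and 49 bases upstream and covered the first base. Its RAD21 peak in RPE-1 cells, 416 bp at chr6:35468022-35468437, was centred 171 bases upstream and also covered the first base. The RPE-1 peak thus sat toward the upstream side of the CHM13 peaks.

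RPS26, a small-subunit protein at the mRNA exit channel, also had all 3 CHM13 subunits and RPE-1 RAD21 upstream of its start. Its CHM13 peaks were centred 183 (RAD21), 112 (SA1) and 274 (SA2) bases upstream, and its RPE-1 RAD21 peak 247 bases upstream, at chr12:56041470-56041872. The RAD21 and SA1 peaks of CHM13 cells covered the first base, and the SA2 and RPE-1 peaks did not. Of the 3 RPE-1 start peaks, the one at RPL10A alone covered the first base. None of these 3 held the CTCF core in its middle 300 bases, beside 32.9% of all RPE-1 RAD21 peaks and 19.3% of those at the starts of other genes.

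**Figure D3:**
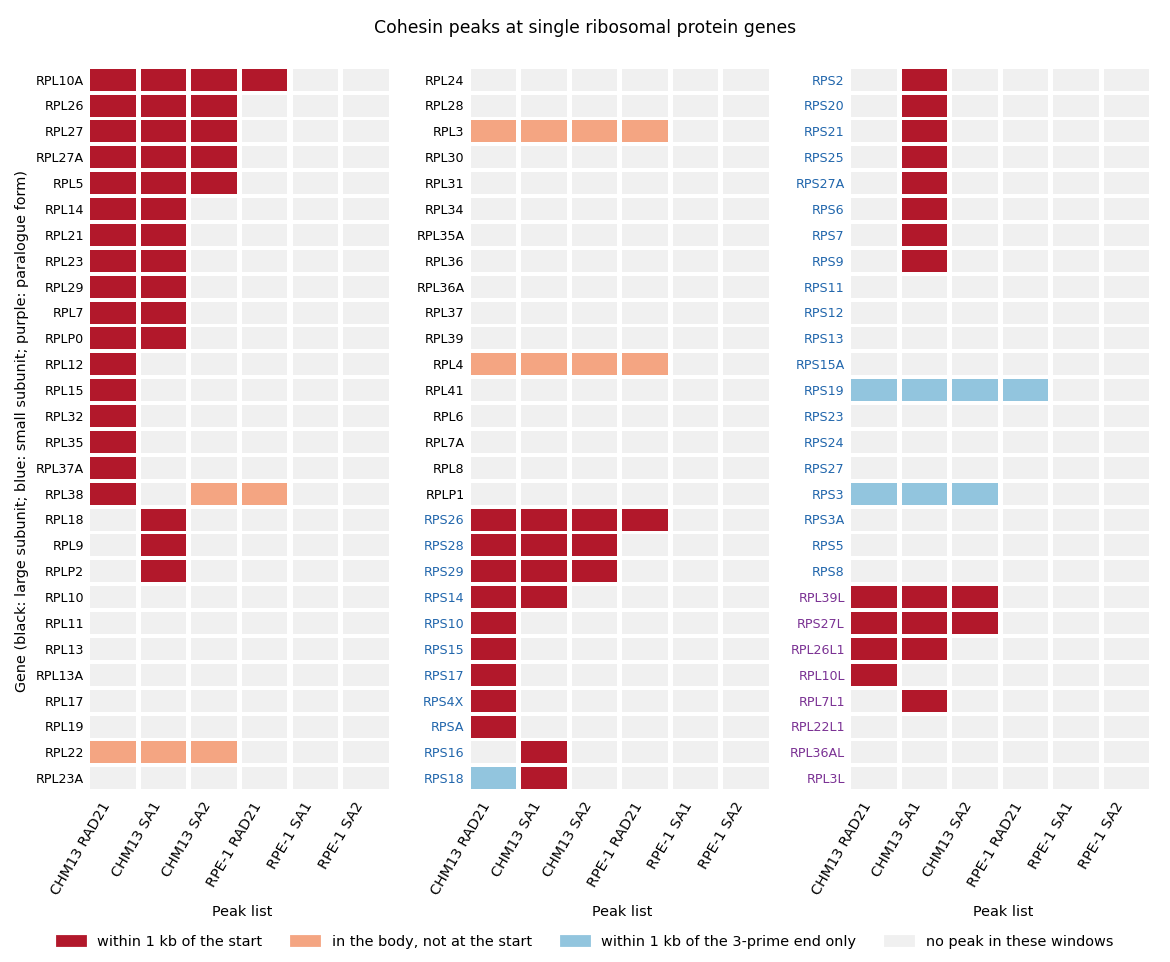
Ribosomal protein genes (84 of the 85, as rows in 3 blocks, ordered by subunit and by number of lists at the start) against the 6 peak lists (columns), coloured by where a peak lay. Start peaks lie mostly in the CHM13 RAD21 and SA1 columns, RPL10A and RPS26 have one in RPE-1 RAD21, and the RPE-1 SA1 and SA2 columns are empty.

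The stalk of the large subunit, which recruits the translation factors, is made of RPLP0 and of copies of RPLP1 and RPLP2. The 3 genes differed in their peaks. RPLP0 had a RAD21 peak (608 bp) centred 380 bases upstream, which did not reach the first base, and an SA1 peak (773 bp) centred 181 bases upstream, which did. RPLP2 had only an SA1 peak (1067 bp), centred 299 bases upstream and covering the first base, with the nearest RAD21 peak 9.84 kb away. RPLP1 had no peak in any window, and its nearest RAD21, SA1 and SA2 peaks in CHM13 cells were 13.3 kb away. RPSA, a small-subunit protein that was also described as a laminin receptor and is unrelated to cohesin SA1, had a RAD21 peak (782 bp) centred 28 bases upstream and no other.

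Of the 8 paralogue forms, 5 had a start peak and all of these in CHM13 cells only. RPL39L, a form known from testis, had RAD21, SA1 and SA2 peaks centred 232, 264 and 307 bases upstream of its canonical transcript. The gene record of RPL39L starts 41412 bases farther upstream, so that these peaks are internal to it. RPS27L, a p53 target, had wide peaks, centred in intron 1 (RAD21 2607 bp, SA1 1776 bp, SA2 1681 bp), and a further RAD21 peak (613 bp) in exon 4. RPL26L1 had RAD21 and SA1 peaks centred 117 and 23 bases upstream. RPL7L1 had an SA1 peak (573 bp) in exon 1, and the RAD21 peak nearest to its start was 2.38 kb away. RPL10L, a gene of 1 exon and 772 bp, had a RAD21 peak (448 bp) centred 149 bases upstream, which fell in the start, body and 3′ windows at once. RPL22L1, RPL36AL and RPL3L, the last known from heart and skeletal muscle, had no peak in any window. Their nearest CHM13 RAD21 peaks lay 21.7, 13.7 and 4.72 kb from the start.

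The peaks at these starts lay mostly upstream. Of the 33 SA1 start peaks 27 were centred before the first base and 18.2% after it, with a median of 102 bases upstream. At other genes 45.5% were centred after it, with a median of 20 bases upstream, so most lay upstream there too. RAD21 start peaks were centred upstream in 21 of 31 cases and downstream in 32.3%, with a median of 84 bases upstream. At other genes 59.6% were centred downstream, with a median of 90 bases downstream. An SA1 peak covered the first base itself at 31 ribosomal protein genes, 36.5%, beside 13.3% of other genes. For RAD21 these shares were 31.8% and 26.6%. The median width of SA1 start peaks was 683 bp, near the 682 bp of other starts, and that of RAD21 start peaks was 725 bp, beside 923 bp.

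Counted by peak centres in 2-kb bins, the bin just upstream held an SA1 peak at 32.9% of ribosomal protein genes and 11.3% of other genes, and the bin just downstream at 7.06% and 9.22%. For RAD21 the upstream bin stood at 27.1% and 16.2%, and the downstream bin at 11.8% and 22.2%. For both subunits the share of ribosomal protein genes was above that of other genes in the upstream bin and below it in the downstream bin.

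**Figure D4:**
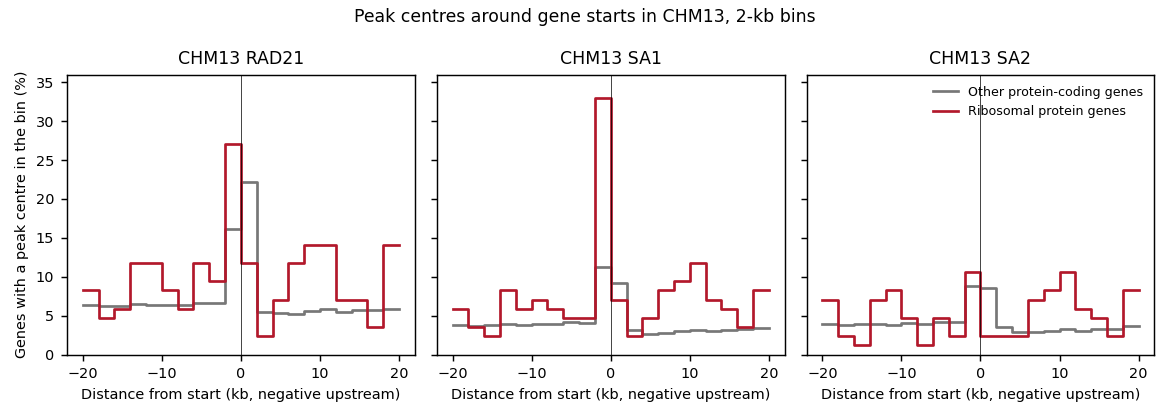
Share of genes (%, vertical axis) with a peak centre in each 2-kb bin from 20 kb upstream to 20 kb downstream of the start (horizontal axis, kb), for the 3 CHM13 lists. In the bin just upstream the ribosomal protein genes reach 32.9% for SA1 and 27.1% for RAD21, against 11.3% and 16.2% of other protein-coding genes.

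Most start peaks held no CTCF core, as at other genes. In CHM13 cells the core was in the middle 300 bases of 3 of 31 RAD21 start peaks (9.68%), 2 of 33 SA1 start peaks (6.06%) and 1 of 10 SA2 start peaks. At other starts the shares were 6.28% (RAD21), 8.28% (SA1) and 10.2% (SA2), and over all RAD21 peaks 12.3%. None of the 14 SA1 start peaks without RAD21 held it, and among all SA1 peaks without RAD21 1.50% did. In the 68 promoters, from 250 bases before to 50 bases from the start, other motifs were more frequent, on either strand. The core of ETS factors, CCGGAA, was in 55.9% of them, beside 23.6% of other promoters, the SP1 box GGGCGG in 57.4% beside 61.8%, the YY1 core AAGATGGCG in 8.82% beside 2.96%, and TATAAA in 10.3% beside 9.42%. In 69 promoters of mitochondrial ribosomal protein genes these 4 shares were 60.9% (ETS), 59.4% (SP1), 18.8% (YY1) and 4.35% (TATAAA). A match describes the letters and not a bound factor. A check of these motifs by the presence of an SA1 or RAD21 start peak is void and not given, because fewer than 80% of the genes with SA1 (26 of 33) and of those without RAD21 (43 of 54) had a RefSeq entry.

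Some of these genes start close to another annotated protein-coding start. Another protein-coding start lay within 1 kb of 18 of the 85 starts, and 9 of these 18 (50.0%) had an SA1 peak, against 24 of the other 67 (35.8%). For other genes the shares were 30.5% of 2792 with such a neighbour and 15.6% of 17093 without. The ribosomal protein genes stood higher in both classes, but only 18 of them are in the first. At RPL17, RPL36A and RPS10 the other start belongs to a record named jointly for the gene itself and another gene. No SA1 start peak was listed at these genes, and such records were not set apart. Whether a neighbouring start bears on the SA1 peaks was not tested. Small nucleolar RNA genes, which guide the modification of rRNA, lie on the same strand within the canonical transcript of 28 of the genes. An SA1 start peak was listed at 8 of these 28 (28.6%) and at 25 of the 57 without (43.9%).

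Other genes that serve translation were set beside them, and these are part of the 19885 other genes. Mitochondrial ribosomal protein genes, which encode the ribosome of mitochondria and are named MRPL or MRPS, had SA1 start peaks at 46 of 78 (59.0%, 47.9 to 69.2%), RAD21 at 31 (39.7%) and SA2 at 3 (3.85%, 1.32 to 10.7%). SA1 without RAD21 was at 24 of the 78, 30.8%. Of 28 ribosome biogenesis genes, which make and assemble rRNA, 14 had SA1 (50.0%), 10 RAD21 and 4 SA2. Of 20 other genes with TOP mRNAs, mainly translation factors, 7 had SA1, 11 RAD21 and 5 SA2. The share of SA1 starts was thus at least as high in the mitochondrial and biogenesis lists as in the ribosomal protein genes, and the intervals of the mitochondrial and cytosolic sets (47.9 to 69.2% and 29.2 to 49.5%) overlapped slightly.

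The bodies of the genes, from the first to the last base of the canonical transcript, had fewer peaks than those of other genes. A RAD21 peak lay in 30 of 85 bodies, 35.3% (26.0 to 45.9%), beside 56.1% of other genes, and an SA1 peak in 34, 40.0%, beside 42.9%. SA2 lay in 9, 10.6% (5.67 to 18.9%), beside 40.2%. In RPE-1 cells RAD21 lay in 4 bodies, 4.71%, beside 23.4%, and SA1 and SA2 in none, beside 16.7% and 10.9%.

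The genes are short, which bears on these counts directly. Their median length was 4541 bp (772 to 18549 bp), beside 23082 bp for other genes. Among 2113 other genes of 3240 to 6742 bp, the middle range of the ribosomal protein genes, 31.4% had a RAD21 peak in the body in CHM13 cells, 18.7% an SA1 peak and 13.8% an SA2 peak. In RPE-1 cells these shares were 8.05, 2.79 and 2.04%. Beside these genes of like length, RAD21 and SA2 were near the background and SA1 was above it. At the start, the same 2113 genes had RAD21 at 27.0%, SA1 at 15.5% and SA2 at 10.9%.

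The body peaks were mostly the start peaks seen again. Without the first and last kb of each body, which leaves 78 genes longer than 2 kb, 8.97% of ribosomal protein genes had a RAD21 peak and 6.41% an SA1 peak, beside 47.2% and 35.6% of other genes. Peak centres in bodies numbered 16 for RAD21, 35.9 per Mb (exact Poisson interval 20.5 to 58.3), beside 29.1 per Mb of other genes. For SA1 they numbered 10, 22.4 per Mb (10.8 to 41.3) beside 13.5, and for SA2 6, 13.5 per Mb (4.94 to 29.3) beside 15.9. For each of the 3 the interval contained the density of the other genes. These densities include the centres of start peaks, so they do not describe the bodies away from the ends. Without the first and last kb they fell, as given below. For each of the 3 subunits the order relative to other genes held under 1 of 2 alternatives and was reversed under the other.

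**Figure D5:**
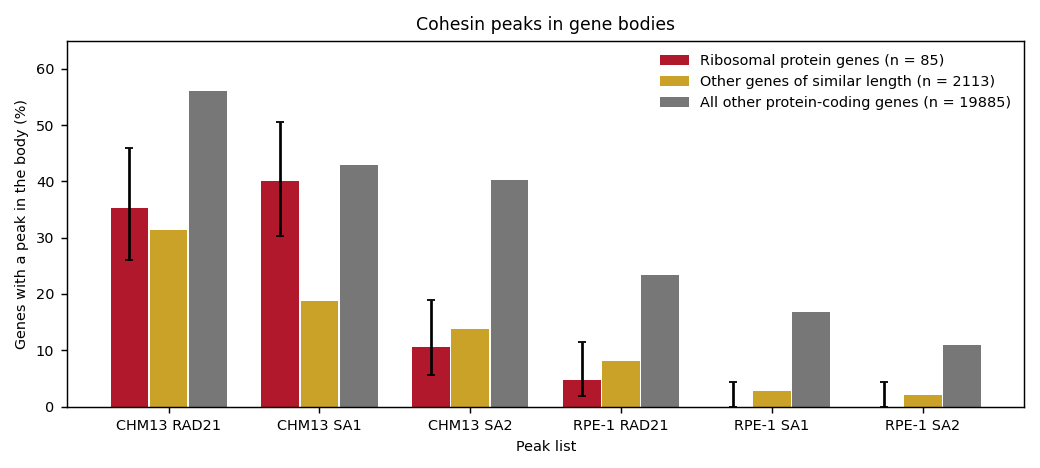
Share of genes (%, vertical axis, from 0) with a peak in the body, for each of the 6 peak lists, in the 85 ribosomal protein genes (with Wilson 95% intervals), in 2113 other genes of similar length and in all 19885 other protein-coding genes. For RAD21 in CHM13 cells the ribosomal protein genes (35.3%) stand near the genes of similar length (31.4%) and below all other genes (56.1%).

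Body peaks in 3 or more lists and none at the start were found at 3 genes, 3.53%, RPL3, RPL4 and RPL22. The share of other genes under the same rule was not counted. All 3 are of the large subunit, as are 46 of the 85 genes. In RPL3 the 3 CHM13 peaks and the RPE-1 RAD21 peak lay over 1 place in intron 4, with centres 2925 to 3035 bases from the start, and all 4 contained the CTCF core printed above. The core lay 1 base from the centre of the CHM13 RAD21 peak (chr22:39316261-39316931) and 7 bases from that of SA2. In RPL4 RAD21 and SA1 peaks of CHM13 cells lay in exon 10, over the CTCF core mentioned above, and a second group with all 3 CHM13 subunits and RPE-1 RAD21 was centred just downstream of the last base. In RPL22, the protein of which also binds viral RNA, the 3 CHM13 peaks lay in exon 4, 13643 to 13785 bases from the start, and reached the 3′ window.

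Within 1 kb of the 3′ end, the shares were near those of other genes. RAD21 was at 9 of 85 ends, 10.6%, beside 10.8%, SA1 at 5, 5.88%, beside 6.20%, and SA2 at 6, 7.06%, beside 5.96%. RPE-1 RAD21 was at 3, 3.53%, beside 3.37%, and RPE-1 SA1 and SA2 at none, beside 1.63% and 1.22%. RPS19, the gene first linked to Diamond-Blackfan anaemia, and RPS3 had 3′ peaks only, and are named after their values were seen. At RPS19 the 3 CHM13 subunits and RPE-1 RAD21 were centred 13026 to 13111 bases from the start, past the last base. At RPL38, also named for its values, RAD21 and SA2 of CHM13 cells and RAD21 of RPE-1 cells lay in exon 5. At the 3′ end, all 5 genes with SA1 and all 6 with SA2 also had RAD21, beside 96.9% and 99.5% of such ends of other genes.

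By the median, ribosomal protein genes lay closer to a peak than other genes did in each of the 6 lists. The median distance from the start to the nearest peak centre was, in CHM13 cells, 4.72 kb (RAD21), 5.89 kb (SA1) and 12.1 kb (SA2), beside 7.05, 16.7 and 17.3 kb. In RPE-1 cells the medians were 23.6, 47.9 and 64.0 kb, beside 36.7, 61.7 and 93.0 kb. This was not particular to these genes. Medians of the mitochondrial ribosomal protein and ribosome biogenesis genes were also below those of other genes in each of the 6 lists. The mitochondrial set was closer than the cytosolic one for SA1 in both lines (0.19 kb in CHM13 cells) and for RPE-1 SA2. It was farther in the rest. The other TOP mRNA genes had medians below those of other genes in every list except RPE-1 SA2. Within 10 kb of the start, a CHM13 RAD21 peak was found at 74.1% of ribosomal protein genes and 57.2% of other genes, and an SA1 peak at 67.1% and 38.6%.

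The 5 starts farthest from a CHM13 RAD21 peak were those of RPL36 (83.6 kb), RPL37 (36.8 kb), RPS27A (36.7 kb), RPS6 (28.8 kb) and RPL11 (26.4 kb). RPS27A encodes a fusion of ubiquitin and a small-subunit protein, and RPS6 the classic substrate of S6 kinase. These 2 had SA1 peaks at the start, of 704 and 484 bp, centred 350 bases upstream and 122 bases downstream, and in both cases over the first base. SA1 was therefore listed at them with the nearest RAD21 peak 36.7 and 28.8 kb away. RPL36, RPL37 and RPL11, the last a binder of MDM2 with RPL5, had no SA1 peak at the start either. Their nearest SA1 peaks lay 30.0, 44.3 and 26.4 kb away.

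Ribosomal protein genes have many processed pseudogenes, copies of their mRNAs, and reads of exons can map to either. A CHM13 RAD21 peak overlapped 43 of 1580 processed pseudogenes named for a ribosomal protein gene, 2.72% (2.03 to 3.65%), beside 3.61% of 8936 others. For SA1 the shares were 1.20% and 1.60%, and for SA2 1.46% and 1.92%. The pseudogenes named for a ribosomal protein gene were shorter, with a median of 478 bp beside 616 bp. The part of length in these shares was not tested. The SA1 start peaks of the parent genes covered the first base in 31 of 33 cases, and so reach into exon 1. The part of such reads in the start peaks was not tested.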

How the data were processed

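ChIP-seq libraries of RAD21, SA1 and SA2 in CHM13 (3 replicates) and RPE-1 cells (2 replicates) were aligned by the authors with bwa mem, filtered with samtools and called with macs (q of 0.01) in each replicate. The authors merged replicates with GenomicRanges and dropped loci seen in fewer than 2. The methods describe this for CHM13 v1.0, and the deposited hg38 lists were used here. Their values are peak positions, with no height or count, so depth enters only through the number of peaks called.

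Peaks were overlapped (at least 1 bp) with GENCODE 44 genes in Python 3.11.15 with numpy 2.4.6 and scipy 1.17.1. The overlap code was tested on simulated data. Of 188301 peaks, 0 lay past a chromosome end. Genes, lists and comparisons were chosen with earlier results of these data known, so no test of a list was run and shares stand beside those of all other protein-coding genes. Members described singly were those with start peaks in at least 4 lists or in RPE-1, body peaks in at least 3 lists without a start peak, the 5 farthest from RAD21, RPSA, RPLP0 to RPLP2 and the paralogue forms. RPL5, RPL38, RPS3, RPS4X and RPS19 were added after their values were seen. A gene that met this rule is counted but not reported singly here. The lists on CHM13 v1.0 were only counted. The alternatives concerned the window, the transcript, the peaks and the genes compared.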

Additional observations from a re-analysis of the deposited data

How the results depend on the processing

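Of 156 values recomputed, 32 moved out of the interval of the value reported. Of the others, 6 could not move, since only the genes compared with changed, and the RPE-1 SA1 and SA2 values of 0 could not fall. The SA1 share at the start stayed above that of other genes under all 7 alternatives. The RAD21 and SA2 shares at the start kept their order relative to other genes under 6 of 7, the exceptions being wide peaks for RAD21 (18.8 beside 23.2%) and peaks shared by the 3 subunits for SA2 (11.8 beside 9.90%). With peaks at least as wide as the median of their list, the CHM13 start shares were 18.8% (RAD21), 23.5% (SA1) and 4.71% (SA2), that of RPE-1 RAD21 was 0%, body shares to 20.0, 24.7 and 3.53%, and 3′ shares to 4.71, 2.35 and 2.35%, with 1.18% for RPE-1 RAD21. With only peaks shared by the 3 subunits, start shares were 11.8% for RAD21 and for SA1, beside 10.4 and 9.88% of other genes, body shares 14.1% for both, and RPE-1 RAD21 0% at start, body and 3′ end. Without the first and last kb, body shares were 8.97% (RAD21), 6.41% (SA1), 5.13% (SA2) and 1.28% (RPE-1 RAD21), and densities 7.15, 3.57 and 3.57 peaks per Mb. With the peak centre required inside, body shares were 16.5% for RAD21 and 11.8% for SA1. With the gene record in place of the canonical transcript, body shares were 23.5% for SA2, 14.1% for RPE-1 RAD21 and 5.88% for RPE-1 SA1. At the 3′ end the order relative to other genes held under only 4 of 7 alternatives for each CHM13 subunit. In the body it held under 6 (RAD21), 5 (SA1) and 7 (SA2) of 7. With a window of 2 kb, 3′ shares were 21.2% for RAD21 and 16.5% for SA1, with no share of other genes set beside them here. The cause of these moves was not tested beyond what each alternative removes.

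No replicate could be left out, since each list pools its replicates. No paired analysis was possible because the results come from pooled lists and no test. Peak heights and library depths are not in the lists, so a missing peak may be a weak one. The RPE-1 lists were 3.57 to 6.94 times shorter, and that of SA2 held 1.49 times as many peaks on CHM13 v1.0 as on hg38. The paper reports fewer reads for the RPE-1 precipitations than for those of CHM13 cells, except a RAD21 replicate of CHM13 cells, which had the fewest. A locus was kept when seen in at least 2 of 3 replicates in CHM13 cells, but in 2 of 2 in RPE-1 cells. Line, RAD21 antibody, sonication, added Drosophila chromatin, library depth and number of replicates cannot be told apart.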
